A study of Danio rerio with 6 samples.

Results

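Immediate early genes were followed in iridophores and in general cells sorted from larvae of the zebrafish (Danio rerio). They were chosen by name: fosab, fosb, fosl2, junba, junbb, atf3, egr1, ier2b, dusp1 and btg2. Of these 10 genes, 8 had a row among the 11016 rows of the count table, and 7 of the 8 passed the filter on low counts, which left 6849 genes for testing. Neither egr1 nor ier2b had a row under its symbol or a RefSeq synonym, and both were not analysed here.

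Immediate early genes are transcribed within minutes of a stimulus, before any new protein has to be made. Serum response factor with its ternary complex partners, and CREB, are held ready at their promoters and are activated by MAP kinases and other kinases. Many of their products are transcription factors: Fos and Jun proteins pair to form AP-1. Others are not, among them dual specificity phosphatases, which inactivate MAP kinases, and anti-proliferative BTG proteins. Enzymatic dissociation of tissue at warm temperature is a known inducer of these genes in many cell types. A level in sorted cells can therefore mix what the cell held in the larva with what it made on the way to lysis.

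Iridophores, the pigment cells with reflecting purine crystals, gave 3 libraries, and a general cell population that serves as their control gave another 3. All larvae were 5 days post fertilization, labelled wild type in genotype, and positive for the transgene Tg(pnp4a:PALM-mCherry), in which the pnp4a promoter drives a membrane-bound red reporter. Per the labels' protocols, larvae were kept in TrypLE Express at 37 °C for 2 hours with shaking at 200 rpm, broken up mechanically, stained with Hoechst for 30 min and sorted, about 20000 cells per sample, into lysis buffer. All 6 libraries went through these steps, so no level before dissociation was measured here. Whether the control gate left out reporter-positive cells is not given in the labels.

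Library totals were 616439 to 1686552 counts in iridophores, with 1612637 to 3282480 counts in the control. Levels are given as CPM, counts scaled to a common library size. A count of 3 corresponded to 1.69 to 5.50 CPM in the iridophore libraries, against 0.897 to 1.79 CPM in control libraries. Of 12 tested iridophore markers, 11 passed an edgeR adjusted p of 0.05 in the higher direction, and crip2 was not called. Skeletal muscle markers summed to 20767 to 24375 CPM in iridophores against 10454 to 12186 CPM in the control over 9 of 11 listed genes. Erythrocyte markers summed to 632 to 739 CPM in iridophores against 1316 to 1825 CPM in the control over 6 of 8 listed genes. Xanthophore markers (7 of 8) summed to 297 to 501 CPM in iridophores against 167 to 273 CPM in the control, and of 5 tested 3 were called higher, slc2a15b most (log2 fold change 6.56), and 2 lower. Epidermis markers (13 of 14) overlapped in their sum, 4537 to 6617 CPM in iridophores against 3563 to 4925 CPM in the control, but icn and anxa1c were called higher (log2 fold changes 2.85 and 3.70). Levels of icn were 3973, 1018 and 774 CPM in iridophore replicates 1, 2 and 3. Of the other tested ones none was called. The log2 fold changes of krt91, cyt1, cyt1l and cldne were -0.45, -0.42, -0.38 and -0.52, and those of krt4 and krtt1c19e 0.21 and 0.056. Macrophage and neutrophil markers (8 of 14) overlapped in their sum too, at 33.0 to 96.2 CPM in iridophores against 19.1 to 70.24 CPM in the control. Among them coro1a was called higher (23.5 CPM in iridophores against 0.595 CPM in the control, edgeR adjusted p 0.00049). The other tested ones, mmp9 (7.63 against 13.2 CPM) and mmp13a (10.4 against 22.1 CPM), averaged lower in iridophores and were not called. Of those not tested, marco (12.2 against 1.75 CPM), mfap4 (8.98 against 2.16 CPM) and cd74b (3.19 against 0.98 CPM) averaged higher in iridophores than in the control. The other untested ones, mpx (0.611 against 5.81 CPM) and npsn (1.23 against 4.21 CPM), averaged lower in iridophores. Melanophore markers (4 of 8) overlapped in their sum, 71.4 to 148 CPM in iridophores against 62.5 to 269 CPM in the control. Of 4 tested only dct was called, higher in iridophores (log2 fold change 1.37, edgeR adjusted p 0.0359). The others had negative log2 fold changes: tyrp1b -1.37 (edgeR adjusted p 0.0562), tyrp1a -0.83 and pmela -0.65. No marker with a row was at 0 in all libraries, and the part of these other cells in the results below was not tested.

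Few of the immediate early genes were called between the sorted populations, and a gene that was not called is not shown to be unchanged. Of the 7 tested, 0 were higher and 1, btg2, was lower in iridophores (edgeR quasi-likelihood test, Benjamini-Hochberg adjusted p under 0.05 over all 6849 genes). Over all tested genes 39.9% were called, 22.1% higher and 17.8% lower. At an unadjusted p under 0.05, 2 of the 7 passed, fosab in the higher direction and btg2 in the lower. Of all 6849 tested genes, 3335 passed at that level. The median log2 fold change was -0.35 over the 7 genes and 0.01 over all tested genes, and 5 of the 7 had a negative value, against 49.3% of all tested genes. CPM ranges of the groups did not overlap for 2 of the 7 genes, fosab and btg2, while 51.8% of all tested genes did not overlap.

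**Figure D1:**
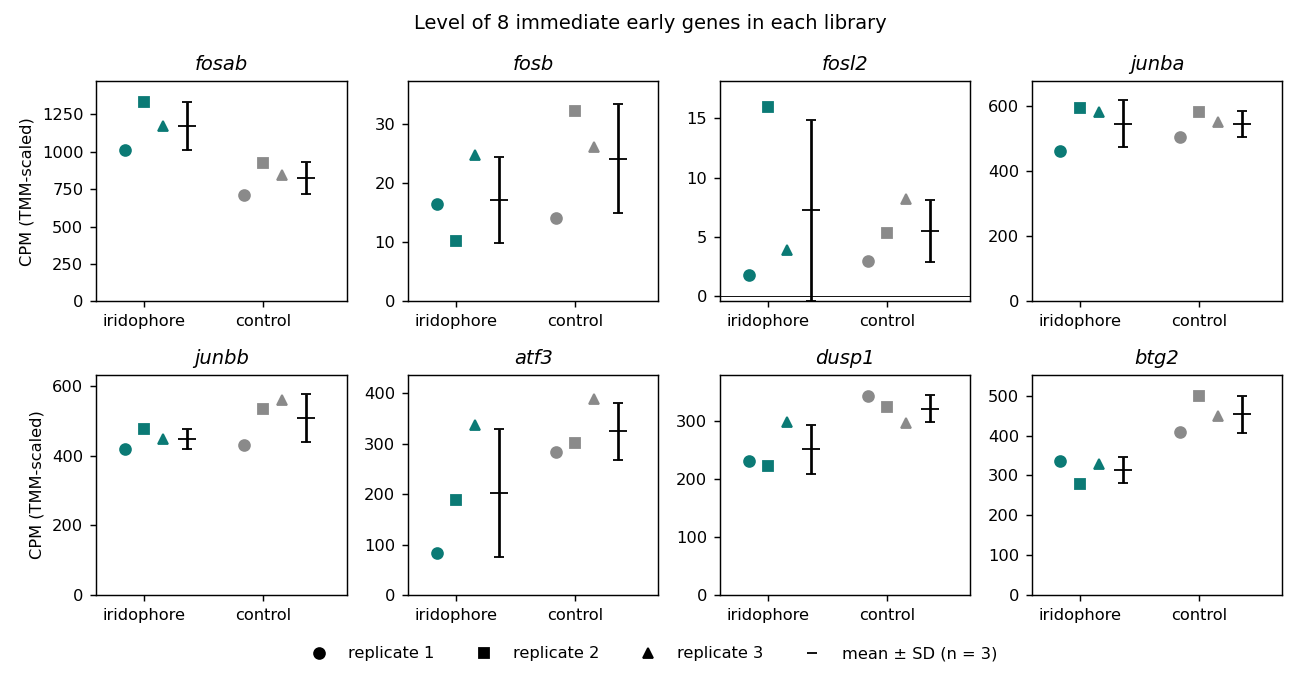
Level of each of the 8 genes in CPM (linear axis) in each library, with iridophores on the left and control on the right. Points are replicates and bars are mean ± SD (n = 3). Only fosab and btg2 have groups that do not overlap, fosab with iridophores above and btg2 with iridophores below.

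Among the AP-1 genes, fosab encodes a c-Fos protein, which binds DNA as a partner of Jun proteins. It had 1011, 1333 and 1174 CPM in iridophore replicates 1, 2 and 3, against 711, 925 and 842 CPM in control replicates 1, 2 and 3. Every iridophore library was above every control library. The means were 1173 ± 161 CPM in iridophores against 826 ± 108 CPM in the control (SD, n = 3 each). The log2 fold change was 0.51 (SE 0.19, 95% interval 0.08 to 0.93) and missed the threshold (edgeR adjusted p 0.0587). Within each replicate number the log2 ratio of iridophore to control was 0.51, 0.53 and 0.48 for numbers 1, 2 and 3. Names of same-numbered libraries differ between the groups only in their prefix. Same-numbered libraries were not taken as pairs, so these ratios are a description only. With the replicate number as a block the log2 fold change was 0.50 and fosab passed (edgeR adjusted p 0.0370). Of the 6 fits that left out 1 library, fosab passed only in the one without iridophore replicate 1 (log2 fold change 0.58, edgeR adjusted p 0.0252). It missed without iridophore replicate 2 (0.175), iridophore replicate 3 (0.1001), control replicate 1 (0.240), control replicate 2 (0.168) or control replicate 3 (0.195), all edgeR adjusted p-values. DESeq2 gave a log2 fold change of 0.41 and an adjusted p of 0.207. Library names give replicate 1 of both groups another ending than replicates 2 and 3. Within replicates 2 and 3 the change was 0.48 (edgeR adjusted p 0.0391), and with the ending as a term it was 0.50 (edgeR adjusted p 0.0172). The ending with replicate 1 holds 1 library per group and allows no test.

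The junba and junbb genes encode JunB proteins, which partner Fos in AP-1. Levels of junba were 462, 594 and 581 CPM in iridophore replicates 1 to 3, against 503, 583 and 549 CPM in control replicates 1 to 3. The groups overlapped and their means were 545 ± 72.9 CPM in iridophores against 545 ± 39.8 CPM in the control (SD, n = 3 each). The log2 fold change of 0.0027 had a 95% interval of -0.41 to 0.42 (edgeR adjusted p 0.994), and its sign changed with the processing. For junbb, 419, 478 and 449 CPM were measured in iridophores and 431, 535 and 560.4 CPM in the control. The groups overlapped here too, with iridophore replicate 1 lowest, as for junba, and control replicate 3 highest. The log2 fold change of junbb was -0.18 (95% interval -0.60 to 0.24, edgeR adjusted p 0.476).

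The atf3 gene encodes a stress-induced factor of the ATF/CREB family that can pair with Jun proteins. It was the most uneven of the tested genes between iridophore libraries. It had 84.3, 187 and 336 CPM (46, 129 and 598 counts) in iridophore replicates 1, 2 and 3, against 284, 301 and 388 CPM in control replicates 1, 2 and 3. The highest iridophore library was 3.99 times the lowest, and the highest control library 1.37 times the lowest. Iridophore replicates 1 and 2 lay under every control library, and iridophore replicate 3 lay inside the control range. Against the control the log2 fold change came to -0.65 (SE 0.39, 95% interval -1.53 to 0.23, edgeR adjusted p 0.218). It rested on single libraries. Without iridophore replicate 3 the value was -1.29 (edgeR adjusted p 0.0230), and without iridophore replicate 1 it was -0.31 (edgeR adjusted p 0.377). With the name ending in the fit atf3 passed (-0.78, edgeR adjusted p 0.0375), as it did with a replicate block (-0.83, edgeR adjusted p 0.0167). Within replicates 2 and 3 alone atf3 did not pass (-0.40, edgeR adjusted p 0.216).

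The other Fos family members were near the depth limit. For fosb, 9, 7 and 44 counts were found in iridophores and 47, 54 and 51 counts in the control. These are 16.5, 10.16 and 24.7 CPM in iridophores against 14.1, 32.1 and 26.1 CPM in the control, so the groups overlapped. Relative to the control the log2 change was -0.36 (SE 0.41, 95% interval -1.26 to 0.54, edgeR adjusted p 0.510). It was -0.12 without iridophore replicate 2 and -0.88 without iridophore replicate 3, and the gene passed in neither fit. The fosl2 gene, which encodes Fra-2, did not pass the filter. It had 1, 11 and 7 counts in iridophores (1.83, 15.97 and 3.94 CPM) and 10, 9 and 16 counts in the control (2.99, 5.36 and 8.20 CPM). Iridophore replicate 2 had the highest level and iridophore replicate 1 the lowest. With every row of the table tested, the log2 fold change of fosl2 came to 0.28 (SE 0.66, edgeR adjusted p 0.788).

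Both dusp1 and btg2 had lower means in iridophores, and btg2 alone passed the test. The dusp1 gene encodes a phosphatase that inactivates MAP kinases. It had 231, 222 and 299 CPM in iridophore replicates 1 to 3, against 342, 324 and 296 CPM in control replicates 1 to 3. Iridophore replicate 3 lay just above control replicate 3, so the groups overlapped. For dusp1 the log2 fold change was -0.35 (SE 0.20, 95% interval -0.80 to 0.09, edgeR adjusted p 0.189).

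The btg2 gene encodes an anti-proliferative protein that promotes shortening of mRNA poly(A) tails. It had 335, 277 and 328 CPM in iridophore replicates 1 to 3, against 408, 500.0 and 449.6 CPM in control replicates 1 to 3. Every iridophore library was under every control library. The means were 314 ± 31.7 CPM in iridophores against 453 ± 45.9 CPM in the control (SD, n = 3 each). The level fell to 69.3% of the control, or by 0.53 on the log2 scale (SE 0.19, 95% interval -0.95 to -0.11, edgeR adjusted p 0.0478). The call was close to the threshold. It held without iridophore replicate 1 (edgeR adjusted p 0.0295), and was lost without iridophore replicate 2 (0.127), iridophore replicate 3 (0.0600), control replicate 1 (0.0526), control replicate 2 (0.117) or control replicate 3 (0.104), all edgeR adjusted p-values. The log2 fold change was -0.45 to -0.64 over these 6 fits. Within replicates 2 and 3 it was -0.67 (edgeR adjusted p 0.0101), and after all libraries were thinned to the smallest total -0.45 (edgeR adjusted p 0.161). In these bulk libraries, fewer cells with a transcript and less RNA per cell cannot be told apart.

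**Figure D2:**
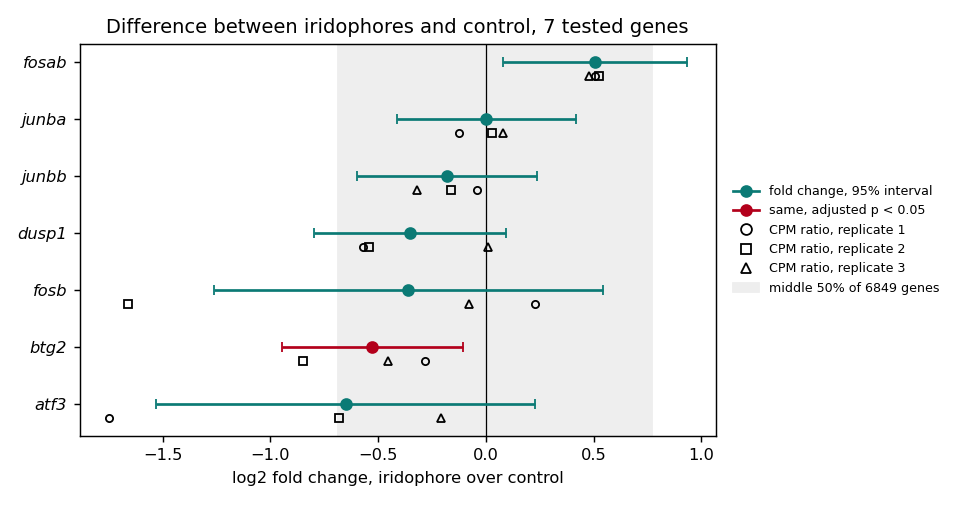
Log2 fold change of iridophores over control for the 7 tested genes, with 95% intervals from the edgeR fit (filled points, red where the adjusted p is under 0.05). Open symbols under each point are the CPM ratios within replicate numbers 1, 2 and 3, and the grey band spans the middle 50% of the 6849 tested genes (-0.69 to 0.77). The 7 values lie between -0.65 and 0.51, all within that band, and the 3 fosab ratios lie closer together than those of any other gene. Replicate numbers were not taken as pairs.

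Ratios within a library do not depend on how libraries are scaled to each other. The counts of fosab were 39.5%, 42.8% and 36.7% of the summed counts of the 8 genes in iridophores and 26.4%, 28.9% and 27.0% in the control. The lowest iridophore share had an exact binomial 95% interval of 35.5% to 38.0%, and the highest control share one of 27.7% to 30.1%. These intervals cover counting error only. Per count of junbb, fosab had 2.41, 2.79 and 2.61 counts in iridophores against 1.65, 1.73 and 1.503 in the control. Per count of junba it had 2.19, 2.24 and 2.02 in iridophores and 1.41, 1.59 and 1.53 in the control. The groups did not overlap in any of these 3 measures, which were chosen after the values were seen and were not tested. All 3 rest on the same fosab counts, so they are not separate observations. The pair of junB genes kept a closer ratio: junba had 1.1004, 1.24 and 1.29 counts per count of junbb in iridophores and 1.17, 1.09 and 0.980 in the control, and the groups overlapped. A higher fosab share lowers the shares of the others, so btg2 and dusp1 were set against the counts of the 7 genes other than fosab. For btg2 this came to 21.6%, 15.5% and 16.2% in iridophores against 20.6%, 21.9% and 19.7% in the control. For dusp1 the values were 14.9%, 12.4% and 14.8% in iridophores against 17.2%, 14.2% and 13.0% in the control. The groups overlapped for both genes. On the same measure junba had 29.8%, 33.3% and 28.7% in iridophores against 25.4%, 25.6% and 24.1% in the control, without overlap. The shares of fosb, fosl2, junbb and atf3 overlapped, and none of these shares was tested.

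**Figure D3:**
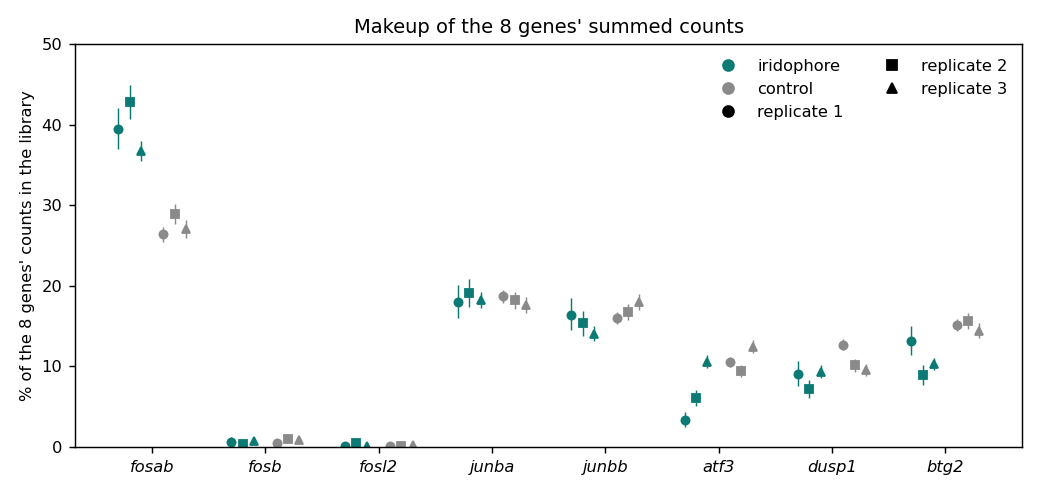
Share of each gene in the summed counts of the 8 genes, in percent, for each library, with exact binomial 95% intervals (counting error only). Iridophore libraries stand left of control libraries within each gene. The fosab share is 36.7% to 42.8% in iridophores, against 26.4% to 28.9% in the control, while the junba shares overlap. A higher fosab share lowers the others in the same library, and with fosab left out of the sum the junba shares do not overlap.

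Together the 8 genes took 0.227%, 0.286% and 0.337% of all counts in iridophore replicates 1, 2 and 3, against 0.275%, 0.334% and 0.317% in control replicates 1, 2 and 3. The exact binomial 95% interval was 0.215% to 0.239% in the lowest library and 0.328% to 0.346% in the highest. The groups overlapped, with means of 0.283% ± 0.0551 in iridophores and 0.309% ± 0.0305 in the control (SD, n = 3 each). In iridophores the order of the shares was also the order of library totals, but in the control the deepest library had the lowest share. The part of depth in these shares was not tested.

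Whether the genes moved together was examined on log2 CPM after each group's mean was taken away, since the libraries fall into 2 groups. Iridophore replicate 3 lay above its group mean for 7 of 7 tested genes, against 53.7% of all tested genes, but fosab (0.0105) and junbb (0.0036) were practically at the mean. Control replicate 1 lay under its group mean for 6 of 7 genes, with dusp1 as the exception, and 50.5% of all tested genes lay above the mean in that library. Iridophore replicate 1 lay under its group mean for 5 of 7 genes, the exceptions being fosb and btg2. The largest deviations were those of atf3, at -1.04 in iridophore replicate 1 and 0.94 in iridophore replicate 3.

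Over the 21 pairs of the 7 genes, the Pearson coefficient of these deviations across the 6 libraries had a median of 0.34, with 17 pairs above 0. Over all pairs of tested genes the median was -0.001 and 49.9% were above 0. These coefficients are descriptions: 6 libraries of 2 groups give few independent points, all genes of a library share its depth and scaling, and 5% of all gene pairs had a coefficient above 0.857. The closest pairs were fosab with junba (0.91), fosb with btg2 (0.89) and fosab with junbb (0.85), and junba with junbb had 0.69. The lowest were dusp1 with junbb (-0.36) and dusp1 with fosab (-0.20). In replicate 1 of both groups, which has its own name ending, fosab, junba and junbb all lay under the group mean. Their deviations were -0.20, -0.23 and -0.10 in iridophore replicate 1 and -0.21, -0.11 and -0.23 in control replicate 1. Joint movement of these genes cannot be told apart from a difference between the name endings. With libraries scaled by their totals alone the median was 0.62 and all 21 pairs were above 0. Over all pairs of tested genes that scaling gave a median of 0.073, with 54% above 0. With RLE size factors the median of the 7 genes was 0.313, and 16 of the 21 pairs were above 0. The degree of joint movement therefore depended on the scaling.

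**Figure D4:**
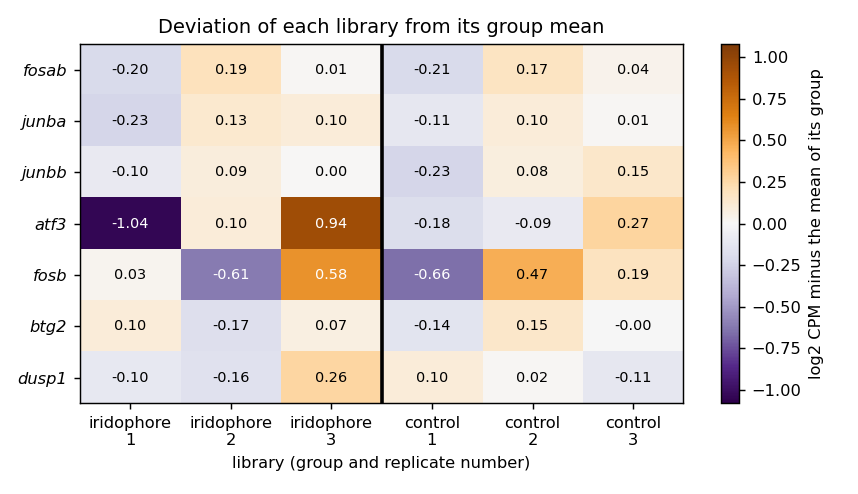
Deviation of log2 CPM from the mean of its group for the 7 tested genes (rows) in each library (columns, iridophores left of the line and control right of it). Orange is above and purple under the group mean. Iridophore replicate 3 is at or above its mean in every row. The fosab and junba rows are the closest pair (Pearson coefficient 0.91), followed by fosb and btg2 (0.89). Both fosab and junba lie under the mean in replicate 1 of both groups, which has its own name ending. The atf3 row has the widest range (-1.04 to 0.94).

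Among the other 1757 genes with at least 50 CPM on average, those most like the mean deviation of the 7 genes were hif1al (Pearson coefficient 0.999), atp2a1l (0.996), ncl (0.991), and2 (0.982) and ddx21 (0.979), each over 6 libraries. The gene ncl encodes nucleolin and ddx21 a nucleolar RNA helicase, both of ribosome synthesis. The 7 genes entered that mean unscaled, so the uneven atf3 and fosb weighed most in it. Deviations of atf3 were -1.04 and 0.94 in iridophore replicates 1 and 3. Those of fosb were -0.61 in iridophore replicate 2 and -0.66 in control replicate 1. The 5 were picked for the highest coefficients over few independent points, and no shared function among them was tested. None of the 5 was called between the groups (edgeR adjusted p 0.233 to 0.981).

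Further transcription factors of the early response moved in both directions. Of 46 listed, 32 had a row and 24 were tested, of which 5 were higher and 4 lower, or 37.5% called, near the 39.9% of all tested genes. Their median log2 fold change was 0.10. The AP-1 gene jun, named after its values were seen, had 1079 ± 148 CPM in iridophores against 1184 ± 78.7 CPM in the control (SD, n = 3 each; log2 fold change -0.13, edgeR adjusted p 0.588). The gene jdp2b, whose mammalian counterpart encodes a repressor that pairs with Jun, had 67.7 ± 10.7 CPM in iridophores against 22.0 ± 0.695 CPM in the control. It rose by a log2 fold change of 1.64 (edgeR adjusted p 0.000373), or 2.27 after all libraries were thinned to the smallest total. The nuclear receptor gene nr4a1 fell by 1.97 on the log2 scale (edgeR adjusted p 0.00249), with 13.3 ± 7.88 CPM in iridophores against 56.2 ± 7.60 CPM in the control. The flow-responsive factor gene klf2b had 2.28 ± 2.04 CPM in iridophores against 20.4 ± 7.28 CPM in the control (log2 fold change -2.76, edgeR adjusted p 0.00401), or -3.60 without iridophore replicate 3. Its iridophore level is close to the floor. The log2 fold changes of nfil3-6 and klf11a were 2.504 and 1.80 (edgeR adjusted p 0.00292 and 0.00705), and that of nfil3-6 was 3.11 without control replicate 3. The rise of csrnp1a (1.95, edgeR adjusted p 0.0171) was lost when iridophore replicate 3 was left out (1.07, edgeR adjusted p 0.246) or when control replicate 2 was (1.81, edgeR adjusted p 0.0589).

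Of 55 further signalling and feedback genes, 40 had a row and 35 were tested, with 7 higher and 6 lower (37.1% called, against 39.9% of all tested genes) and a median log2 fold change of -0.03. Genes for suppressors of cytokine signalling were among those that rose. The gene socs1a had 77.8 ± 14.5 CPM in iridophores against 12.6 ± 0.989 CPM in the control, and rose by 2.63 on the log2 scale (SE 0.24, edgeR adjusted p 3.22e-05). Levels of socs3a were 375 ± 113 CPM in iridophores against 129 ± 28.3 CPM in the control, and of socs3b 118 ± 38.1 CPM in iridophores against 33.5 ± 8.36 CPM in the control (log2 fold changes 1.55 and 1.85, edgeR adjusted p 0.00173 and 0.00104). The receptor kinase inhibitor gene spry2 rose by 2.03 (edgeR adjusted p 0.00310), or 2.62 within replicates 2 and 3. A relative of dusp1, dusp2, had 22.6 ± 3.69 CPM in iridophores against 51.8 ± 5.31 CPM in the control (log2 fold change -1.16, edgeR adjusted p 0.00410), but -0.69 after that thinning (edgeR adjusted p 0.215). The growth factor gene hbegfb had a log2 fold change of -1.11 (edgeR adjusted p 0.0264). Its call was lost without iridophore replicate 2 (0.0559) or 3 (0.0918) and without control replicate 1 (0.0869) or 2 (0.0525), and within replicates 2 and 3 alone (0.0870), all edgeR adjusted p-values, and with DESeq2 (adjusted p 0.0757).

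Relatives of btg2 in the BTG/TOB family, named after their values were seen, were compared with it. The gene tob1a had 144 ± 31.6 CPM in iridophores against 290.5 ± 44.7 CPM in the control, and fell by 1.00 on the log2 scale (edgeR adjusted p 0.00698). The gene tob1b had 396 ± 48.0 CPM in iridophores against 589 ± 71.4 CPM in the control, and fell by 0.57 (edgeR adjusted p 0.0379). The gene tob1b no longer passed with iridophore replicate 2 (0.105), control replicate 2 (0.0994) or control replicate 3 (0.0672) left out, or after thinning (0.0600), all edgeR adjusted p-values, and tob1a passed in all 16 alternatives. The relatives btg1 and btg3 did not pass: btg1 had a log2 fold change of -0.52 (edgeR adjusted p 0.144; -0.74 and 0.0323 within replicates 2 and 3) and btg3 one of -0.0010 (edgeR adjusted p 0.999).

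Regulators upstream of the early response (serum response factor and its partners, CREB, and the MAP kinase cascade) were looked up next. Among the listed genes with a row there was neither serum response factor nor a ternary complex partner. Of other partners of that factor only mkl1b had a row, with 2, 3 and 11 counts in iridophores. It averaged 4.74 CPM in iridophores against 9.27 CPM in the control and was not called (log2 fold change -0.85, edgeR adjusted p 0.104). Serum response factor and its partners other than mkl1b were not covered. Of 50 listed, 27 had a row and 16 were tested, with 3 higher and 0 lower and a median log2 fold change of 0.17. This is 18.8% called, against 39.9% of all tested genes, and 22.1% of all tested genes were higher. At an unadjusted edgeR p under 0.05, 5 of the 16 passed, against 3335 of all 6849 tested genes. The 3 higher genes were creb1b (1.43, edgeR adjusted p 0.0164), raf1a (1.23, edgeR adjusted p 0.0287) and ep300b (1.21, edgeR adjusted p 0.0263). The call of creb1b was lost with iridophore replicate 3 left out (edgeR adjusted p 0.116), control replicate 1 (0.0884) or control replicate 3 (0.0801). Those of raf1a and ep300b were lost in 5 of the 6 fits that left out 1 library, the exceptions being iridophore replicate 1 for raf1a and control replicate 1 for ep300b, with edgeR adjusted p up to 0.162 for raf1a and 0.103 for ep300b. None of the 3 passed with DESeq2 (adjusted p 0.125 for creb1b, 0.197 for raf1a and 0.103 for ep300b). Without a filter raf1a missed too (edgeR adjusted p 0.0651), and within replicates 2 and 3 creb1b (0.0566) and raf1a (0.101) did, both edgeR adjusted p-values.

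Heat shock genes are a further group known to respond to warm dissociation. They summed to 79546 to 83803 CPM in iridophores against 59366 to 63223 CPM in the control over 25 of 32 listed genes, without overlap. Most of the sum was hsp70.1, hsp70.3 and hsp70l, together 51317 to 54193 CPM in iridophores against 37087 to 39428 CPM in the control, and hsp70l was not called (edgeR adjusted p 0.110). Of 24 tested, 9 were higher and 1 lower (41.7% called, against 39.9% of all tested genes), with a median log2 fold change of 0.34. By direction, 22.1% of all tested genes were called higher and 17.8% lower. Over 16 alternatives the calls of hsf2, hspb9 and dnaja1, the lower gene, were lost in 11, 9 and 6, while hspb1, hspb11 and serpinh1b passed in all 16. The calls of hsp90aa1.2 and ubc were close to the threshold (edgeR adjusted p 0.048 and 0.0489). The small heat shock gene hspb1 had the second largest rise of the group, 1.16 on the log2 scale (SE 0.16, edgeR adjusted p 0.000411), after hspb11 at 1.40 (edgeR adjusted p 0.000947).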

How the data were processed

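Poly(A) RNA of sorted cells was turned into 3'-end libraries by bulk MARS-seq, per the labels' protocols. The authors deposited raw counts per gene symbol, not normalized, for 6 libraries; cutadapt, STAR 2.5.2b, HTSeq, DESeq2 1.36.1 and the build danRer11 are named in the submitters' processing notes, without their roles. The annotation, the filter on genes and the use of molecular identifiers are not given in the sources used here. Of the 11016 symbols, 9118 matched RefSeq symbols of GRCz12tu, used for names only.

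Columns were matched to samples by library name. In R 4.3.3, edgeR 4.0.16 (minimum count 10, minimum total count 15, TMM factors, quasi-likelihood F test, group as the only term) was run on the deposited counts and adjusted over 6849 genes by Benjamini-Hochberg at 0.05. SE is the absolute log2 fold change over the square root of F, and 95% intervals use its t quantile. CPM use TMM-adjusted sizes. Deviations use log2 CPM with a prior count of 2. limma 3.58.1 and DESeq2 1.42.0 were alternatives. The script was tested on simulated data.

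All 10 members were named; of each other list up to 6 called genes with the largest change were eligible, and the 5 genes most alike in deviation. The members and lists were chosen with earlier results of these data known. Replicates are biological, per the labels; p-values cover the spread between 3 libraries per group.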

Additional observations from a re-analysis of the deposited data

How the results depend on the processing

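Over 16 alternatives the log2 fold changes of fosab (0.35 to 0.58), atf3 (-1.29 to -0.31), btg2 (-0.69 to -0.45), dusp1 (-0.54 to -0.22) and junbb (-0.34 to -0.13), and over 15 that of fosb (-0.88 to -0.12), kept their sign. That of junba, 0.0027, became -0.019 with RLE factors, -0.15 with upper-quartile factors, -0.0929 with library size alone, -0.0726 without a filter, -0.0942 with DESeq2, -0.0044 with a replicate block, -0.0050 with the library-name ending as a term, -0.0040 after thinning, and -0.0942 to 0.0897 with 1 library left out. The value of btg3, -0.0010, became 0.0572 with limma-voom and -0.2879 to 0.2394 with 1 library left out. Upper-quartile factors moved the median of all tested genes by -0.15. DESeq2, run without the filter and so over more genes, moved it by -0.11, and edgeR without a filter by -0.074.

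Genes of the group called higher numbered 1 (fosab) instead of 0 with limma-voom, the replicate block, the ending term and replicates 2 and 3 alone, and 0 to 1 with 1 library left out. Those called lower numbered 2 (btg2 and atf3) instead of 1 with the replicate block and with the ending term, 0 after thinning, and 0 to 1 with 1 library left out. Over all genes, thinning every library to the smallest total, an alternative chosen after seeing the data, left 720 higher and 500 lower of 4150 tested. The median coefficient between deviations was 0.622 with library size alone, against 0.073 over all pairs of tested genes. In the order of libraries by summed level, 4 of 6 kept their place with RLE factors and 4 with library size alone. Deviations of same-numbered libraries correlated at 0.315, 0.071 and 0.175 across genes, not all above 0.1, so the numbers were not taken as pairs. Names of same-numbered libraries match apart from the prefix of the group, and these coefficients cannot settle whether the libraries were pairs. Replicate 1 of each group, which shares a name ending, correlated at -0.241 to -0.152 with the other numbers, and iridophore replicate 2 correlated best with control replicate 3. Deviations cancel within a group, so the 0.315 of replicate 1 brings negative values with the other numbers, which are no separate observation. The replicate block gave 1584 higher and 1387 lower, and raf1a missed with it (edgeR adjusted p 0.0630). The cause of these changes was not tested. The filter left out fosl2, and after thinning fosb too.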
